A study of Homo sapiens with 16 samples.

Results

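The adenylyl cyclases ADCY1, ADCY2, ADCY3, ADCY5, ADCY6, ADCY7, ADCY8 and ADCY9 were examined across 16 RNA sequencing libraries of the human neuroblastoma line SH-SY5Y. The 8 members were chosen by gene symbol from a table of 19898 genes, and the measured value behind the choice is presence in that table, which holds genes with 11 or more reads over all libraries. Of the 8, 7 held enough reads to be tested. The cells had been differentiated for 15 days toward dopamine-like neurons, either inside a silk and collagen scaffold (3D) or on a flat dish (2D). The 4 groups, of 4 libraries each, were MPP-treated 3D, untreated 3D, MPP-treated 2D and untreated 2D. MPP is 1-methyl-4-phenylpyridinium, a toxin taken up by catecholamine cells that inhibits complex I of the respiratory chain, and it was given at 1 mM over the last 48 h, starting on day 13. All groups share the single cell line and the same differentiation, and separate cultures for the replicate libraries are not stated in the labels. The p-values therefore measure only the spread between these libraries, which may be technical. The study asked how scaffold culture alters these neuron-like cells as a model of Parkinson's disease.

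ADCY8 stood apart from the rest of the family. It reached a mean normalised read count of 215 in untreated 3D cultures and lay between 6.59 and 19.7 in the other 3 groups. ADCY1, ADCY3 and ADCY5 were higher with MPP than without it in both cultures, by factors of 1.22 to 1.56. ADCY7 was lower with MPP in 3D, and the MPP effects in 3D and 2D differed for ADCY7 and ADCY8. ADCY3, ADCY5 and ADCY9 were lower in 3D than in 2D at either treatment, and ADCY6 carried the most transcript per length in every library.

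Adenylyl cyclases convert ATP into cyclic AMP, the messenger that activates protein kinase A, the exchange factors called EPAC and cyclic nucleotide-gated channels. The membrane-bound forms are switched on by the stimulatory G protein subunit Gαs behind receptors such as dopamine D1-type, adenosine A2 and PACAP receptors. They differ in their other inputs. ADCY1, ADCY3 and ADCY8 respond to calcium and calmodulin, ADCY2 and ADCY7 are stimulated by G protein βγ subunits together with Gαs, ADCY5 and ADCY6 are inhibited by calcium and by Gαi, and ADCY9 responds little to the plant compound forskolin. In striatal neurons, the target cells of dopamine, ADCY5 is the main form.

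The libraries held 24589435 to 46359070 reads. On principal component 4, untreated 3D replicate 3 scored 56.4 and the rest of its group -29.6 to 4.32, and the ADCY8 changes are given without this library too. Single genes of the pathway lists are given with it only. The share of reads from mitochondrially encoded mRNA was 1.24% ± 0.207 in MPP-treated 3D, 4.47% ± 1.61 in untreated 3D, 0.874% ± 0.0754 in MPP-treated 2D and 9.62% ± 1.65 in untreated 2D (SD, n = 4). Of the 15 dopamine and catecholamine neuron markers listed, 9 were in the table, and the dopamine transporter SLC6A3 with LMX1A, EN1, FOXA2, KCNJ6 and ALDH1A1 is not analysed here. The sum of those 9 ran between 94551 and 121280 in MPP-treated 3D and between 126606 and 149502 in untreated 3D, and in 2D between 124997 and 140277 with MPP and between 149068 and 167468 without it. TH, the rate-limiting enzyme of dopamine synthesis, averaged 4241 ± 237 in MPP-treated 3D, 5585 ± 823 in untreated 3D, 595 ± 91.0 in MPP-treated 2D and 341 ± 25.8 in untreated 2D. SLC6A2, another of the 9, went the other way, at 126 ± 27.5 in untreated 3D and 2682 ± 90.9 in untreated 2D. With MPP in 3D, DDC fell from 14143 ± 567 to 2851 ± 602 and SLC18A2 rose from 3129 ± 173 to 6007 ± 867. Of the 9, 4 were higher and 2 lower in untreated 3D than in untreated 2D (limma adjusted p under 0.05), beside 46.1% of all genes. MPP in 3D went with 1 higher and 5 lower, beside 34.6%. All 11 general neuron markers were in the table, and their sum was lower in 3D, where MPP-treated libraries had 85010 to 101501 and untreated ones 89921 to 97726. In 2D the same sum was 162255 to 183586 with MPP, against 148775 to 165224 without it. The 12 mesenchymal neuroblastoma-state markers summed to 13281 to 14981, 13360 to 16696, 19351 to 21817 and 17918 to 19697 in the same groups and were also lower in 3D, with PRRX1 at 0 in every group but MPP-treated 3D. The 8 Schwann and glia markers summed to 739 to 1115 over all libraries, with SOX10 at 0 in untreated 3D. The part of these shifts in the cyclase results was not tested, and in bulk RNA fewer cells of a type and less RNA per cell cannot be told apart. Cells in 2D were detached with Accutase and scaffolds were frozen whole, so culture and handling cannot be told apart either.

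Levels per length placed the members in order. Values here are normalised read counts per kilobase of exon, with exons merged over all transcripts of GENCODE v29 on GRCh38, which may not be the transcripts these cells use. The 9 membrane cyclases, the members with ADCY4 added, summed to 1878 ± 90.4 in MPP-treated 3D, 1764 ± 49.6 in untreated 3D, 2330 ± 97.9 in MPP-treated 2D and 1938 ± 80.5 in untreated 2D (SD, n = 4). The 2 groups overlapped in 3D, and in 2D every MPP-treated library lay above every untreated one. ADCY6 held 43.3% ± 2.52 of that sum in MPP-treated 3D, 44.5% ± 3.16 in untreated 3D, 39.9% ± 1.33 in MPP-treated 2D and 39.8% ± 1.90 in untreated 2D. It was the highest member in all 4 groups, and its lowest library in each lay above the highest library of any other member.

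**Figure D1:**
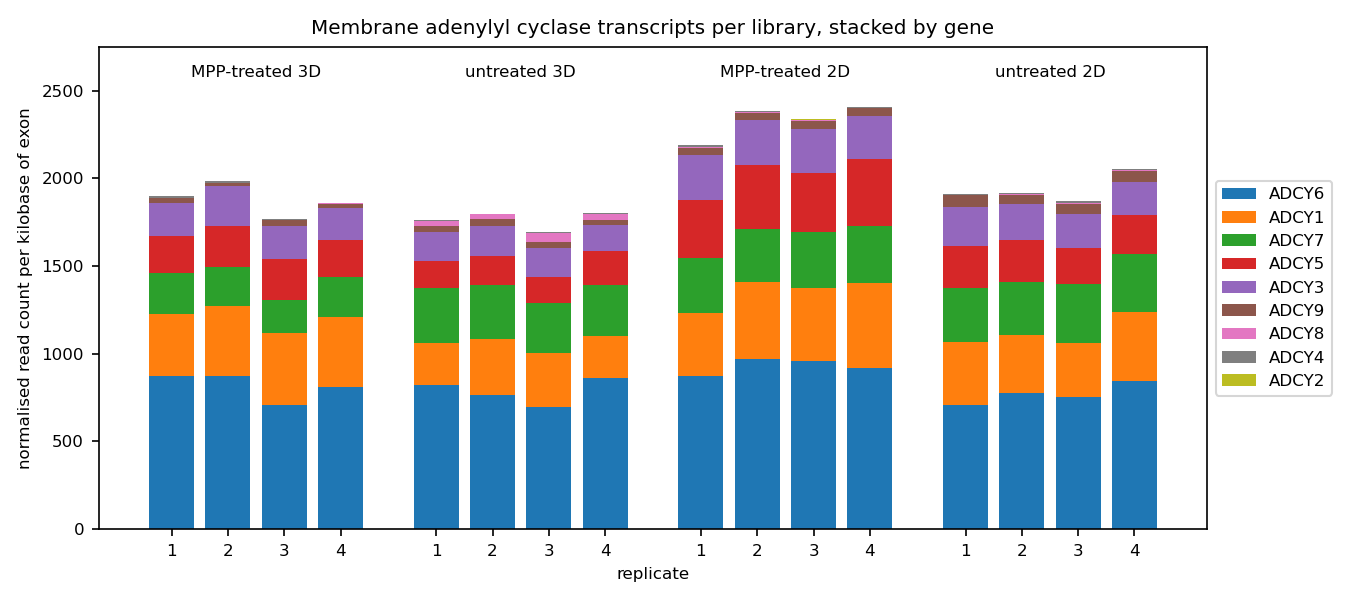
Normalised read counts per kilobase of merged exon for the 9 membrane adenylyl cyclases, stacked by gene, in each of the 16 libraries (horizontal axis: replicate within group). ADCY6 makes the largest block in every bar, and the ADCY8 block is visible in untreated 3D, where it averaged 2.07% of the total.

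Below ADCY6 the order depended on the group. In MPP-treated 3D, ADCY1 came next at 392 ± 24.9 per kilobase, followed by ADCY5 at 223 ± 12.02, ADCY7 at 219 ± 18.9 and ADCY3 at 197 ± 21.5, whose libraries overlapped. In untreated 3D, ADCY7 at 301 ± 12.9 and ADCY1 at 277 ± 40.7 overlapped, as did ADCY5 at 165 ± 19.7 and ADCY3 at 162 ± 9.44. In MPP-treated 2D, ADCY1 at 426 ± 53.1 overlapped ADCY5 at 354 ± 23.4, which lay above ADCY7 at 315 ± 11.2 and ADCY3 at 252 ± 6.19. By mean, ADCY5 stood at rank 3 in both MPP-treated groups and at rank 4 in both untreated groups. In untreated 2D, ADCY1 at 348 ± 38.9 overlapped ADCY7 at 318 ± 15.8, and ADCY5 at 226 ± 15.6 overlapped ADCY3 at 203 ± 13.1. ADCY9 followed at 26.2 ± 6.38 in MPP-treated 3D, 33.1 ± 4.10 in untreated 3D, 43.2 ± 4.79 in MPP-treated 2D and 60.2 ± 6.52 in untreated 2D. ADCY8 overlapped ADCY9 in untreated 3D, at 36.3 ± 10.3, and was at 1.11 ± 0.888, 3.32 ± 1.66 and 3.00 ± 2.03 in MPP-treated 3D, MPP-treated 2D and untreated 2D. ADCY2 was last, at a mean of 0.440 per kilobase or less in every group.

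**Figure D2:**
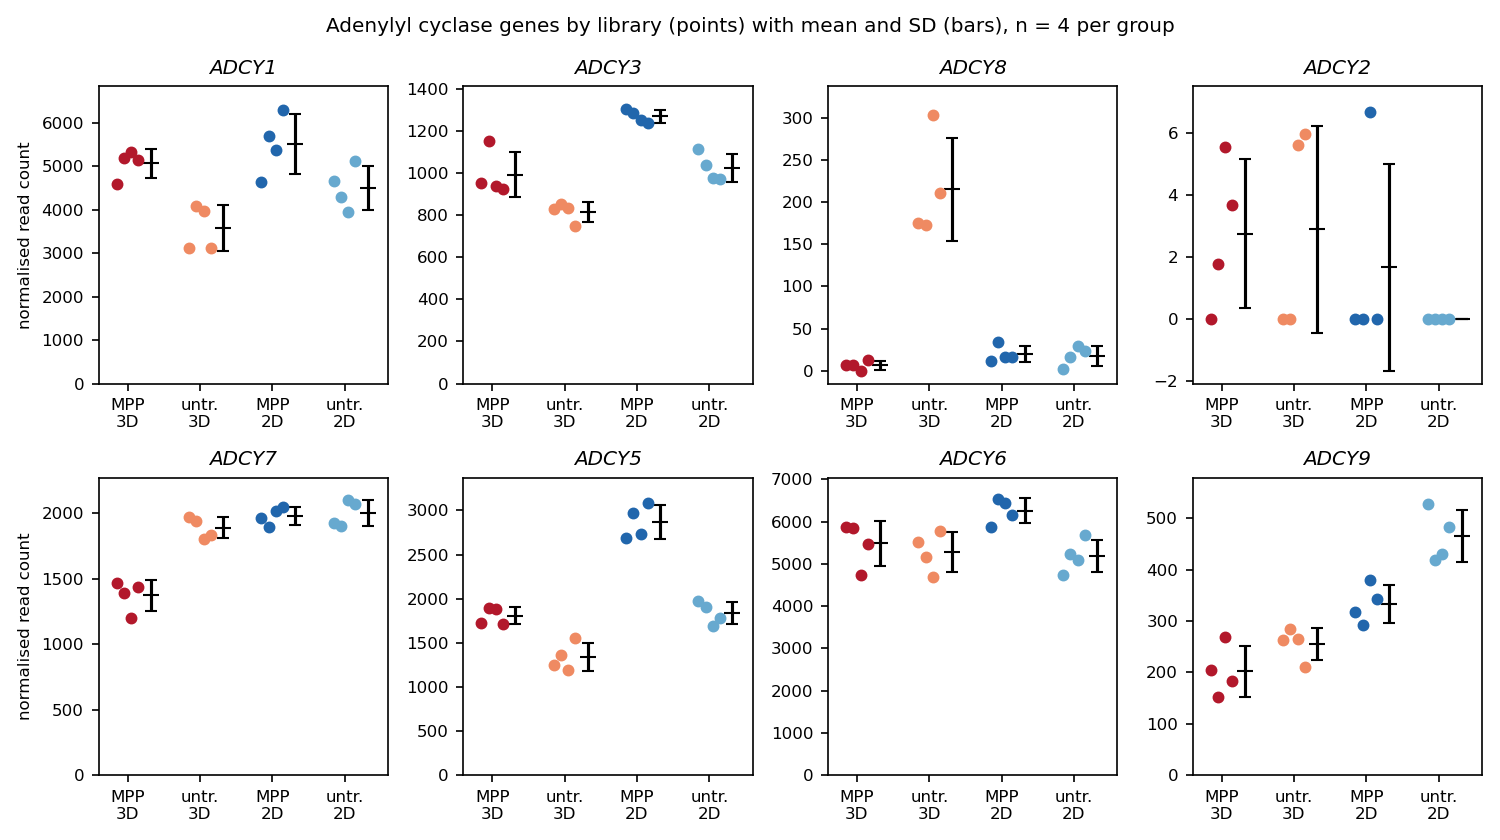
Normalised read count of each member (vertical axes, scaled per gene) in the 4 groups, with a point per library and the mean and SD (n = 4) as bars beside the points. ADCY8 is high in the untreated 3D libraries, and ADCY7 is low in the MPP-treated 3D libraries.

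From here on, values are normalised read counts per gene, and log2 changes are on the log2(value + 1) scale with their standard error (SE) and limma's p adjusted over all 16984 genes tested (Benjamini-Hochberg). The family was chosen with results of these data known, so these p-values describe single genes and are no test of the family.

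Among the calcium- and calmodulin-stimulated members, ADCY8 (Entrez gene 114), a form of brain neurons, had 29 reads in MPP-treated 3D, 670 in untreated 3D, 86 in MPP-treated 2D and 78 in untreated 2D. Its values were 6.32, 7.14, 0 and 12.9 in MPP-treated 3D, against 175, 173, 303 and 210.3 in untreated 3D. In 2D they were 12.1, 34.1, 16.7 and 15.8 with MPP, against 1.72, 16.4, 29.8 and 23.3 without it. All 4 untreated 3D libraries were above all 12 others, and the 2D groups overlapped each other. With MPP in 3D, ADCY8 fell by 5.30 on the log2 scale (SE 0.70, limma adjusted p = 4.11e-06), to 0.0306 times the untreated mean. The ratio of its summed reads, scaled by the size factors, was 0.0313, with a 95% interval of 0.0208 to 0.0454 that covers counting error only. In 2D the change was 0.49 with an interval of -0.97 to 1.94 (limma adjusted p = 0.626), and the MPP effects differed between 3D and 2D by -5.78 (SE 0.99, limma adjusted p = 2.25e-04). Without toxin, ADCY8 was 12.1 times higher in 3D than in 2D (log2 3.94, SE 0.70, limma adjusted p = 8.52e-05). With toxin it was lower in 3D by a log2 of -1.84 (SE 0.70, limma adjusted p = 0.0415), with overlapping libraries, and this last call was lost by edgeR and DESeq2, at adjusted p of 0.0520 and 0.0689, by limma on only the groups compared, at 0.0572, and without untreated 3D replicate 2, MPP-treated 3D replicate 3 or MPP-treated 2D replicate 2, 3 or 4, at adjusted p of up to 0.191. Without untreated 3D replicate 3, the highest library, the MPP change in 3D was -5.12 and the untreated culture change 3.76, and both were called. Outside untreated 3D the gene rests on few reads, and fold changes there carry a wide error.

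ADCY1 (Entrez gene 107, chromosome 7, 45574140 to 45723116, plus strand of GRCh38), a neuronal form with a part in synaptic plasticity, had 4598, 5184, 5337 and 5142 in MPP-treated 3D, against 3130, 4097, 3974 and 3123 in untreated 3D. The MPP-treated 3D libraries were all above the untreated ones. In 2D it had 4648, 5700, 5384 and 6299 with MPP, against 4668, 4285, 3954 and 5123 without it, and these groups overlapped. ADCY1 rose with MPP by a log2 of 0.51 in 3D (SE 0.10, limma adjusted p = 4.84e-04) and by 0.29 in 2D (SE 0.10, limma adjusted p = 0.0331). The 2D call was the less stable, with an adjusted p of 0.0586 at equal nuclear totals and, without untreated 2D replicate 2 or 3 or MPP-treated 2D replicate 2, 3 or 4, of up to 0.120. Without toxin ADCY1 was lower in 3D than in 2D by a log2 of -0.34 (limma adjusted p = 0.00977), with overlap, and with toxin the change was -0.11, with an interval of -0.33 to 0.10. The difference of the MPP effects was 0.22, with an interval of -0.08 to 0.52.

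ADCY3 (Entrez gene 109, chromosome 2, 24819169 to 24919839, minus strand), the form that serves smell receptors and neuronal cilia, had 953, 1156, 942 and 925 in MPP-treated 3D, against 830, 856, 834 and 747 in untreated 3D. In 2D it had 1307, 1286, 1256 and 1237 with MPP, against 1114, 1038, 978 and 972 without it. No library of an MPP-treated group fell within the range of its untreated group. ADCY3 rose with MPP by a log2 of 0.28 in 3D (SE 0.09, limma adjusted p = 0.0148) and 0.31 in 2D (SE 0.09, limma adjusted p = 0.00731). The 3D call rests partly on MPP-treated 3D replicate 2, since without it the change was 0.20 at an adjusted p of 0.0745, and a fit of only the groups compared gave 0.0728. ADCY3 was lower in 3D than in 2D at both treatments, by a log2 of -0.36 with MPP (limma adjusted p = 0.00201) and -0.33 without it (limma adjusted p = 0.00347).

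Of the members stimulated by βγ subunits, ADCY7 (Entrez gene 113, chromosome 16, 50246137 to 50318135, plus strand), known from blood and immune cells, had 1467, 1392, 1202 and 1435 in MPP-treated 3D, against 1975, 1939.7, 1805 and 1838 in untreated 3D. In 2D it had 1962, 1892, 2021 and 2051 with MPP, against 1924, 1907, 2100 and 2073 without it. The MPP-treated 3D libraries were the lowest 4 of the 16, and the other 3 groups lay between 1805 and 2100. ADCY7 fell with MPP in 3D by 0.46 on the log2 scale (SE 0.07, limma adjusted p = 4.20e-05), and in 2D the change was -0.01, with an interval of -0.17 to 0.14. The effects differed by -0.45 (SE 0.10, limma adjusted p = 0.00433), and this difference was called in every alternative run for it, at adjusted p of 4.60e-04 to 0.0233. With toxin ADCY7 was lower in 3D than in 2D by a log2 of -0.53 (limma adjusted p = 5.78e-06), and without toxin the change was -0.08, with an interval of -0.24 to 0.07.

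ADCY2 (Entrez gene 108), the other member of that class and a form of brain neurons, had 26 reads over all 16 libraries and was not tested. It was listed at 0, 1.79, 5.56 and 3.68 in MPP-treated 3D, 0, 0, 5.61 and 5.97 in untreated 3D, 0, 0, 6.68 and 0 in MPP-treated 2D and 0 in all 4 untreated 2D libraries. These are 12, 8, 6 and 0 reads, too few to set the groups apart. ADCY2 was the member nearest to the limit of 11 reads, and ADCY8, with 863 reads, was the next.

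Of the calcium-inhibited members, ADCY5 (Entrez gene 111, chromosome 3, 123282296 to 123449758, minus strand) had 1726, 1896, 1885 and 1718 in MPP-treated 3D, against 1248, 1366, 1196 and 1556 in untreated 3D. In 2D it had 2688, 2966, 2734 and 3088 with MPP, against 1971, 1905, 1688 and 1780.4 without it. The treated and untreated libraries were apart in both cultures, and the MPP-treated 2D libraries were the highest 4 of the 16. ADCY5 rose with MPP by a log2 of 0.44 in 3D (SE 0.08, limma adjusted p = 3.38e-04) and 0.64 in 2D (SE 0.08, limma adjusted p = 3.91e-06). The difference of the effects was -0.21, with an interval of -0.46 to 0.04 (limma adjusted p = 0.267). It was lower in 3D than in 2D with MPP, by a log2 of -0.67 (limma adjusted p = 1.65e-06), and without it, by -0.46 (limma adjusted p = 1.20e-04). These 4 calls held in all 28 alternatives.

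ADCY6 (Entrez gene 112, chromosome 12, 48766194 to 48789037, minus strand), a close relative of ADCY5 found in many tissues, had 5870.1, 5856, 4745 and 5465 in MPP-treated 3D, against 5518, 5157, 4679 and 5786 in untreated 3D. In 2D it had 5874, 6535, 6442 and 6169 with MPP, against 4746, 5229, 5082 and 5685 without it. The 3D groups overlapped and the 2D groups did not. ADCY6 rose with MPP in 2D by a log2 of 0.27 (SE 0.08, limma adjusted p = 0.0106). In 3D the change was 0.05, with an interval of -0.11 to 0.22, but the difference of the effects, -0.22, was not called (limma adjusted p = 0.205), so the cultures are not shown to differ. With toxin it was 0.877 times its 2D mean in 3D (limma adjusted p = 0.0575), short of the threshold. The divergent transcript ADCY6-DT starts beside this gene and averaged 17.7 over the 16 libraries, and since the strandedness of the libraries is not given, reads over their shared bases cannot be assigned.

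ADCY9 (Entrez gene 115, chromosome 16, 3953387 to 4116185, minus strand), expressed widely, had 204, 152, 269 and 184 in MPP-treated 3D, against 263, 284, 265 and 210.3 in untreated 3D. In 2D it had 318, 293, 379.7 and 343 with MPP, against 528, 419, 430.4 and 484 without it. Every 3D library was below every 2D library, whatever the treatment. ADCY9 was lower in 3D than in 2D by a log2 of -0.74 with MPP (SE 0.16, limma adjusted p = 7.00e-04) and -0.86 without it (SE 0.16, limma adjusted p = 1.12e-04). With MPP it fell in 2D by 0.48 on the log2 scale (SE 0.16, limma adjusted p = 0.0220), a call lost at equal library totals (limma adjusted p = 0.0691) and without untreated 2D replicate 1 or 4 or MPP-treated 2D replicate 1 or 2, at up to 0.0746. In 3D the change was -0.36 (limma adjusted p = 0.0829), and it was called without MPP-treated 3D replicate 3 (limma adjusted p = 0.0130) or without untreated 3D replicate 4 (limma adjusted p = 0.0391). The MPP effects on ADCY9 were not shown to differ (0.12, interval -0.34 to 0.58).

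**Figure D3:**
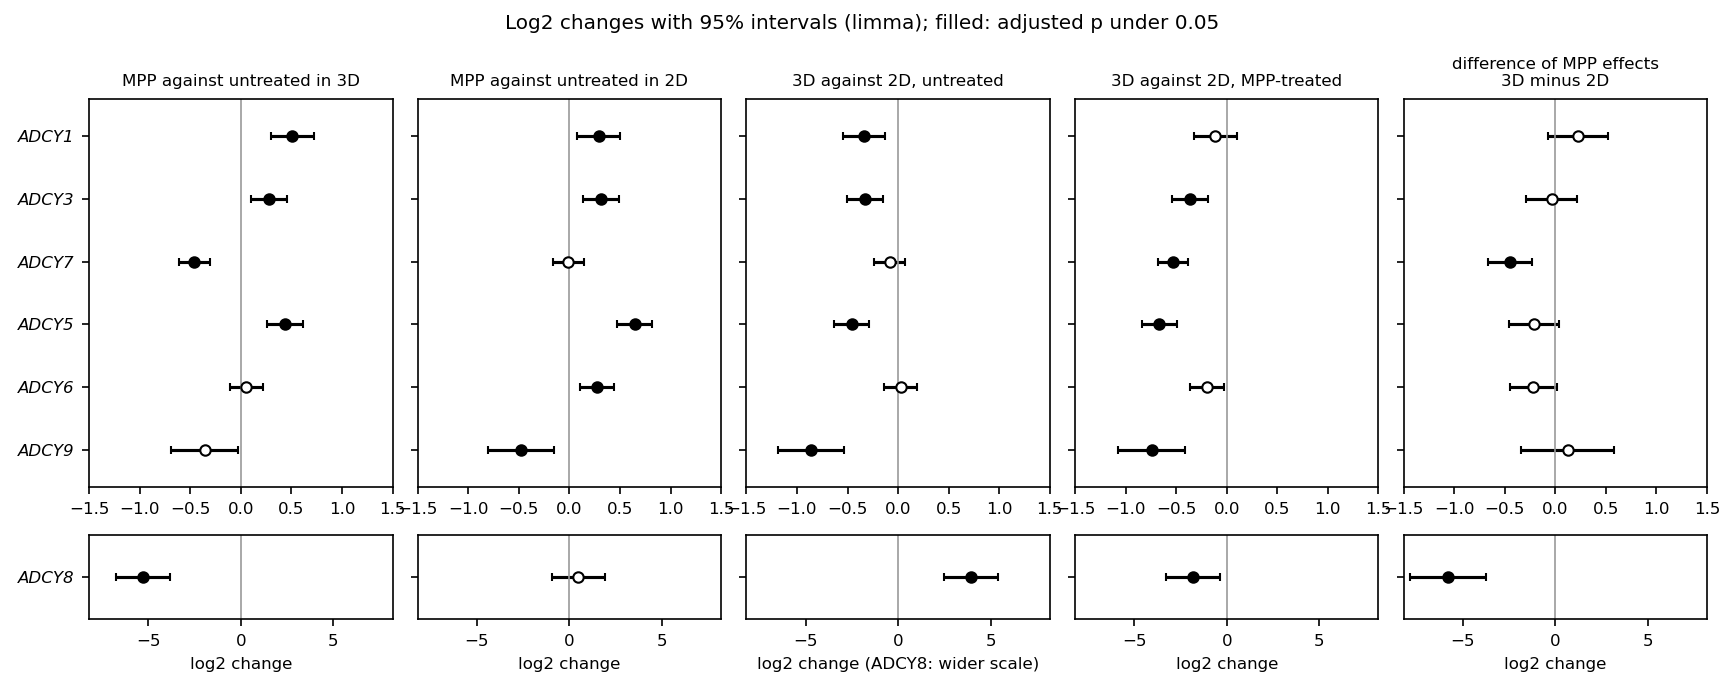
Log2 changes (horizontal axes) of the 7 tested members with 95% intervals in the 5 comparisons, filled where limma's adjusted p was under 0.05; ADCY8 has a wider scale in the lower row. ADCY1, ADCY3 and ADCY5 lie right of 0 with MPP in both cultures, and ADCY7 lies left of 0 in 3D and near 0 in 2D. ADCY3, ADCY5 and ADCY9 are filled and left of 0 in both culture comparisons.

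Counted over the family, 5 of the 7 tested members were called with MPP in 3D, 3 higher and 2 lower, where 34.6% of all genes tested were called. With MPP in 2D, 5 of 7 were called, 4 higher and 1 lower, beside 34.5% of all genes. The median log2 change of the members was 0.05 in 3D and 0.29 in 2D, beside 0.00 and 0.02 over all genes tested. Between cultures with MPP, 5 of 7 were called, all lower in 3D, beside 38.9% of all genes, and the members' median was -0.53 beside 0.01. Between untreated cultures, 5 of 7 were called, with ADCY8 higher and ADCY1, ADCY3, ADCY5 and ADCY9 lower in 3D, beside 46.1% of all genes, and the members' median was -0.33 beside 0.01. The difference of the MPP effects was called for 2 members, ADCY7 and ADCY8, beside 15.3% of all genes. The comparisons share groups, so their counts are not independent of each other. In 2D the count was 3 without MPP-treated 2D replicate 2. ADCY4 and the soluble form ADCY10, which are not members, averaged 13.6 to 27.0 in the groups and had a limma adjusted p of 0.168 or more in every comparison.

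The promoters of the members called with MPP in 3D are shown for ADCY1, ADCY3, ADCY5 and ADCY7, the first 3 of which were higher with MPP in both cultures. That of ADCY8, also called there, is not reported here. Each is the 250 bases before the most upstream transcription start that the RefSeq table of GRCh38.p14 gives for the gene, 5′ to 3′ on the gene's strand. They lie at chr7:45573890-45574139 (plus strand), chr2:24920238-24920487 (minus), chr3:123449091-123449340 (minus) and chr16:50266301-50266550 (plus). The ADCY7 window lies inside the gene span given above, which begins at 50246137, so it does not cover the gene's 5′ end. Its motif counts hold for this inner start only. The ADCY5 window also lies inside its gene span, whose 5′ end is at 123449758. The ADCY3 window lies wholly upstream of its gene span, whose 5′ end is at 24919839. Another ADCY3 window, counted below, lies just inside that end, at chr2:24919586-24919835. Capitals mark the letters TGACG or CGTCA, part of the element bound by the cAMP-responsive factor CREB, and GGGCGG or CCGCCC, the GC box.
ADCY1: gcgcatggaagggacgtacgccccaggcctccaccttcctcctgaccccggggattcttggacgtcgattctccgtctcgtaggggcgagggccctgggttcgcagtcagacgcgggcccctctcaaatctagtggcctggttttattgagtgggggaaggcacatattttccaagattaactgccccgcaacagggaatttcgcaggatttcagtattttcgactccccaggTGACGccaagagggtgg
ADCY3: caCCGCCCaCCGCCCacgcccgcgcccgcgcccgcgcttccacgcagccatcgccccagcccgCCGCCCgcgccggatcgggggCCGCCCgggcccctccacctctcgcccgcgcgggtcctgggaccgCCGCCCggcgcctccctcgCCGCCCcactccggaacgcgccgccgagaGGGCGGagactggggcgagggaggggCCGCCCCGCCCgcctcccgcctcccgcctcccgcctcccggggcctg
ADCY5: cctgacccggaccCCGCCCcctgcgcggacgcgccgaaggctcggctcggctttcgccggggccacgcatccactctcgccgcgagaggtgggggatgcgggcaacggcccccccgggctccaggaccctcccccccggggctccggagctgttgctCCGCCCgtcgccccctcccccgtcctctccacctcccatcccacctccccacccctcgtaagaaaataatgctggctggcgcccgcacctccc
ADCY7: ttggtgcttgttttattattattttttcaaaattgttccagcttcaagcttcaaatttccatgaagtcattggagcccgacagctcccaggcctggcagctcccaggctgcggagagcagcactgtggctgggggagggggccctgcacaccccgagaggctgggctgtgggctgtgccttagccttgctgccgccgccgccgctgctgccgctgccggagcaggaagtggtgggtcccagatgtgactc
The whole palindrome TGACGTCA was in none of the 4 windows, and 1.65% of 35116 RefSeq promoter windows of this length held it, on either strand. The shorter TGACG or its reverse complement, which the palindrome contains, was in the ADCY1 window alone among these 4, starting 17 bases before the start site, and in 21.2% of all windows. GC boxes, overlapping ones included, numbered 9 in ADCY3, 2 in ADCY5 and 0 in ADCY1 and ADCY7, and 42.6% of all windows held at least 1. The letters ACGTG or CACGT, the core of the hypoxia response element, were in none of the 4 and in 18.5% of all windows. The windows of ADCY3, ADCY5, ADCY7 and ADCY1 were 85.2%, 74.8%, 59.6% and 58.4% G and C, against a median of 58.0% over all windows. The table also gives a window further downstream, not shown, for each of ADCY1, ADCY3 and ADCY5. Those windows held 3 GC boxes in ADCY1, 2 in ADCY3 and 0 in ADCY5, and TGACG or its reverse complement stood once in that of ADCY3. The downstream ADCY1 window begins at 45574118, inside the window shown, and its only TGACG is the same site as the one counted above. GC boxes were thus present in at least 1 window of each of these 3 genes, and the counts depend on which start site is taken.

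The genes whose profiles most resembled each member were found by Pearson's r of log2(value + 1) over the 16 libraries, among 13543 named genes with a mean of 50 or more. ADCY5 had the closest ones, MMP24, a membrane metalloproteinase, at r = 0.985 and PHOX2A, a homeobox factor of noradrenergic neurons, at r = 0.982. PHOX2A averaged 47770.4 in MPP-treated 3D, 37045 in untreated 3D, 66057 in MPP-treated 2D and 47515 in untreated 2D, so it was highest in MPP-treated 2D and lowest in untreated 3D, as ADCY5 was. For ADCY9 they were NCOA4, which delivers ferritin to autophagy, at 0.963 and VANGL1 at 0.962. For ADCY7 they were the plexin PLXNB3 at 0.955 and the phospholipase PLCD3 at 0.916. ADCY1 went with ACACB, an acetyl-CoA carboxylase, at 0.944 and RNF152 at 0.931, ADCY3 with WSB2 at 0.937 and SMIM10L2A at 0.936, and ADCY6 with TNKS1BP1 at 0.934 and PRKD2 at 0.918. ADCY8 had the loosest pair, SMIM4 at 0.919 and CSRNP1 at 0.899. Among the members themselves ADCY3 and ADCY5 were the closest pair, at 0.905. These correlations describe libraries that fall into 4 groups, so the points share their culture and treatment.

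The rest of the cAMP pathway was read from 14 lists of 198 genes, 168 of them tested. These include a list of 8 guanylyl cyclases, 7 of them tested, which are outside the cAMP pathway itself but enter the counts. With MPP, 25 were higher and 49 lower in 3D, 44.0% called in all, and 27 were higher and 34 lower in 2D, 36.3% in all. Between cultures, 23 were higher and 63 lower in 3D with MPP, 51.2% in all, and 34 were higher and 63 lower without it, 57.7% in all. The difference of the MPP effects was positive for 9 and negative for 22, 18.5% in all. Over all genes tested the shares called were 34.6% with MPP in 3D, 34.5% with MPP in 2D, 38.9% between cultures with MPP, 46.1% between them without it and 15.3% for the difference, and each list count below is to be read against them. The pathway shares for MPP in 2D and for the difference lie close to these.

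Upstream of the cyclases, 3 of 25 tested Gs-coupled receptors rose with MPP in 3D (HRH2, PTGIR and PTH2R, the last named after its values were seen) and 11 fell. ADORA2B, the low-affinity adenosine receptor, averaged 93.5 ± 19.7 in MPP-treated 3D, against 238 ± 60.8 in untreated 3D (log2 -1.32, limma adjusted p = 1.93e-04), and 59.2 ± 14.9 in MPP-treated 2D, against 57.1 ± 12.6 in untreated 2D. Like ADCY8, it was highest in untreated 3D. PTGIR, the prostacyclin receptor, averaged 3488 ± 187 in MPP-treated 2D, against 1047 ± 68.8 in untreated 2D, where it rose by a log2 of 1.74 (limma adjusted p = 1.37e-11). ADCYAP1R1, the PACAP receptor, averaged 4512 ± 152 in MPP-treated 3D and 1806 ± 136 in MPP-treated 2D (log2 1.32, limma adjusted p = 7.53e-12). Of 25 tested Gi-coupled receptors, 1 rose (OPRL1) and 8 fell with MPP in 3D, and 2 were higher and 11 lower in 3D than in 2D at each treatment. The 9 called with MPP in 3D are about the share of all genes called there.

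Among the G protein subunits that act on the cyclases, GNAS, which encodes Gαs, fell with MPP in 3D, to 151444 ± 9109 against 220893 ± 15098 in untreated 3D (log2 -0.54, limma adjusted p = 2.35e-05). In 2D GNAS averaged 204406 ± 10931 with MPP and 207236 ± 20297 without it, and the difference of the effects was -0.53 (limma adjusted p = 0.00297). An antisense gene overlaps the GNAS locus, and strand was not stated. The values are per gene, so they do not tell which GNAS transcripts fell. GNAL, the olfactory and striatal form of Gαs, named after its values were seen, averaged 40.1 ± 9.51 in MPP-treated 3D, against 8.87 ± 5.17 in untreated 3D (log2 2.22, limma adjusted p = 2.88e-04). GNAI2, an inhibitory subunit, fell with MPP by 0.68 in 3D and by 0.20 in 2D on the log2 scale (limma adjusted p = 6.56e-08 and 0.0227). Of 14 tested βγ genes, 3 were higher and 3 lower in 3D with MPP, with GNG2 at a log2 of 0.50, and the 8 called between cultures with MPP were all lower in 3D. Of 14 genes of calmodulin, its kinases and calcineurin, the 10 called between cultures with MPP were all lower in 3D, and without it 1 was higher and 10 were lower, beside 19.9% and 23% of all genes called lower in 3D. CAMK4, a calmodulin kinase that acts on CREB, averaged 354 ± 37.1 in MPP-treated 3D, against 920 ± 156 in MPP-treated 2D. RGS2, an inhibitor of G protein and cyclase signalling, fell by 0.57 on the log2 scale with MPP in 3D and rose by 0.43 in 2D (limma adjusted p = 3.22e-05 and 6.11e-04).

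Downstream, PDE4C, a cAMP phosphodiesterase, was highest in untreated 3D, as ADCY8 was. It averaged 1125 ± 111 in MPP-treated 3D, against 4328 ± 1001 in untreated 3D (log2 -1.92, limma adjusted p = 1.63e-10), and 1198 ± 149 in MPP-treated 2D, against 1035 ± 111 in untreated 2D. The difference of its MPP effects was -2.13 (limma adjusted p = 3.34e-08). RAPGEF3, which encodes EPAC1, rose with MPP in both cultures, by a log2 of 1.39 in 3D and 0.93 in 2D (limma adjusted p = 1.01e-05 and 8.68e-04). It was among 5 of 11 other cAMP effectors called with MPP in 3D, all of which rose. Between untreated cultures, 1 of the 11 was higher and 9 were lower in 3D than in 2D, and between MPP-treated ones 1 was higher and 6 were lower. CREM, a cAMP-inducible factor of the CREB family, fell by 0.55 on the log2 scale with MPP in 3D and rose by 0.45 in 2D (limma adjusted p = 1.38e-04 and 0.00113), and the difference was -1.01 (limma adjusted p = 1.71e-05). Of 16 tested CREB target genes, MPP in 3D went with 3 that rose and 6 that fell, and MPP in 2D with 7 that rose and 3 that fell, and the difference was called for 8, of which BDNF alone was positive. JUNB averaged 1205 ± 39.7 in MPP-treated 3D, against 2886 ± 373 in untreated 3D, and 2268 ± 158 in MPP-treated 2D, against 2053 ± 248 in untreated 2D. NR4A1, a nuclear receptor in the same list, rose in 3D by a log2 of 1.15 (limma adjusted p = 1.44e-07), so the list did not move one way.

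**Figure D4:**
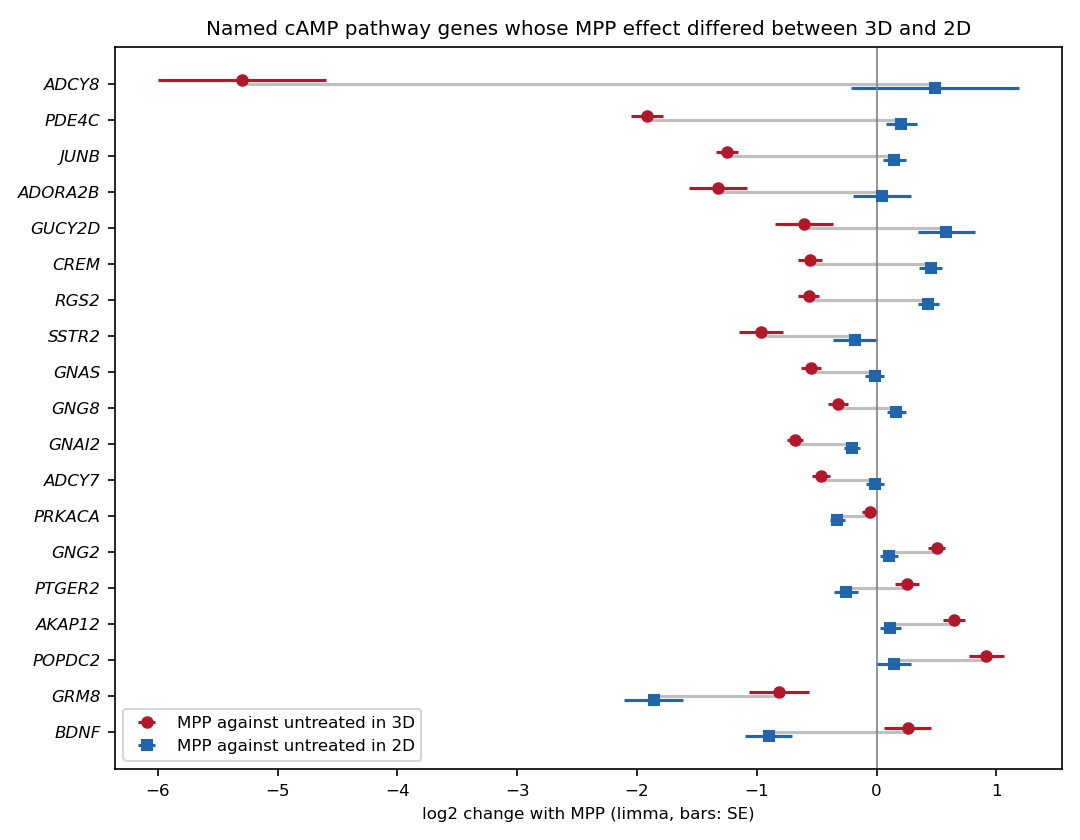
Log2 change with MPP in 3D (circles) and in 2D (squares), with SE bars, for ADCY7, ADCY8 and the 17 named genes of the pathway lists whose MPP effects differed between 3D and 2D (limma adjusted p under 0.05). ADCY8, PDE4C, JUNB and ADORA2B lie far left of 0 in 3D and near or right of it in 2D.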

How the data were processed

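Poly-A RNA of 16 SH-SY5Y libraries was sequenced, 4 in each of 4 groups named in the sample titles. The deposited values are a signal, namely read counts divided by the authors' DESeq2 size factor of each library. The submitters' processing notes name CASAVA 1.8.2, FastQC, STAR, featureCounts, DESeq2 and GRCh38.p13. Their settings, annotation and strandedness are not given in the sources. Whole reads were recovered for 100.0% of values (tolerance 0.01 reads). Replicates differed beyond sampling noise, with a chi-square per degree of freedom of 6.58 or more in 24 pairs.

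The log2(value + 1) were fitted with limma 3.58.1 (R 4.3.3, trend by mean level) as 1 model of 4 groups. Of 19898 genes, 16984 reached 10 in at least 4 libraries and were tested. Genes were called where the p adjusted by Benjamini and Hochberg over all of them was under 0.05. The pseudocount shrinks the log2 ratios of low genes, and since the fit compares means of logs, its log2 changes can differ either way from the ratio of group means, as for ADCY8. Intervals of summed reads cover counting error only, as reads are not independent molecules. Alternatives were equal library totals, equal nuclear totals, TMM factors, quantile normalisation, pseudocounts of 5 and 0.5, dropping the filter, requiring a mean of 50, only the groups compared, a replicate block, edgeR 4.0.16 and DESeq2 1.42.0 on recovered reads, and leaving out each library. The limma, edgeR and DESeq2 steps were tested on simulated data.

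The members, the lists and the rule for named genes were chosen with earlier results of these data known. Besides the members, the rule names, per pathway list and comparison, the called genes of highest and lowest log2 change with a mean of at least 50, the 2 genes closest to each member by Pearson's r, and cell type markers. Genes that cannot be reported were left out without replacement. Promoter windows of 5 of the 8 members were taken from a RefSeq table of GRCh38.p14, and that of ADCY8 is not reported here.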

Additional observations from a re-analysis of the deposited data

Results flagged for a closer look

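Of 39 groups of 4 libraries tested among the cyclase genes, 2 held a library far from the other 3, where chance gives about 1 in 20. In MPP-treated 2D, ADCY2 had a highest library at 6.68 while the other 3 were at 0, a difference of a few reads. In MPP-treated 3D, ADCY3 had a highest library at 1156 (replicate 2), against 925 to 953 in the others.

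The effect of MPP differed between 3D and 2D, by limma's test of the difference itself, for ADCY8 (3D minus 2D -5.78) and ADCY7 (-0.45). Among the G protein subunits it differed for GNAS (-0.53), GNAI2 (-0.48), GNG8 (-0.49) and GNG2 (0.39), and, named after their values were seen, for GNAL (2.90), which has few reads, and GNAO1, an inhibitory subunit (-0.45). Among the receptors picked by the rule for named genes it differed for ADORA2B (-1.37), SSTR2, a somatostatin receptor (-0.78), PTGER2, a prostaglandin E2 receptor (0.51), and GRM8, a glutamate receptor that fell in both cultures (1.05). These receptors, and the downstream genes below, are not all that were called. The difference was positive for 1 and negative for 5 of 25 tested Gs-coupled receptors. Of 25 tested Gi-coupled receptors it was positive for 1 and negative for 2, beside 15.3% of all genes called. Over the 14 pathway lists it was positive for 9 genes and negative for 22. Downstream the effect of MPP differed for PDE4C (-2.13), CREM (-1.01), JUNB (-1.40), BDNF (1.16), the anchoring protein AKAP12 (0.53), the cAMP-binding protein POPDC2 (0.77) and the protein kinase A subunit PRKACA (0.27). It also differed for RGS2 (-0.999), listed both as a CREB target and as a cyclase regulator. GUCY2D, a guanylyl cyclase and so outside the cAMP pathway, differed too (-1.19). Of the genes given here, CREM and RGS2 were called in opposite directions in the 2 cultures, lower with MPP in 3D and higher with MPP in 2D. The fitted signs were also opposite for ADCY8, GNAL, GNAO1, GNG8, ADORA2B, PTGER2, PDE4C, JUNB, BDNF and GUCY2D, which were called in 1 culture or in neither.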

How the results depend on the processing

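No log2 change called for a member reversed under any alternative. The count of genes called stayed within 1.5 times the reported one throughout, and the members called numbered the same or 1 fewer or more, except 3 with MPP in 2D without MPP-treated 2D replicate 2. Leaving out 1 library gave 4 to 6 members with MPP in 3D, 3 to 5 with MPP in 2D, 4 to 6 between MPP-treated cultures, 5 between untreated cultures and 2 for the difference. The values that lost or gained a call stand beside ADCY1, ADCY3, ADCY8 and ADCY9, and ADCY6 with MPP was called lower in 3D in 5 alternatives (limma adjusted p of 0.0383 to 0.0455). Equal library totals moved the median log2 change of all genes with MPP in 2D to 0.12. Scaling moved the split of all called genes: with MPP, 2882 of 5879 were higher in 3D and 2998 of 5866 in 2D, against 4152 of 6294 and 4361 of 6207 at equal library totals and 3594 of 6058 in 3D and 2556 of 6028 in 2D at equal nuclear totals. At equal nuclear totals 3061 of 7998 were higher between untreated cultures, against 3932 of 7830, and 2128 of 3181 for the difference, against 1189 of 2602. Of the members' calls, these 2 scalings ended that of ADCY9 (equal library totals) and that of ADCY1 (equal nuclear totals), both with MPP in 2D. Of the counts for the pathway lists, 38 of 826 moved by more than 1.5 times under other settings and 58 of 1120 when 1 library was left out. The difference of effects could not be fitted with only the groups compared.

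Replicate numbers did not pair the libraries: deviations of same-numbered libraries correlated at -0.115 to 0.09, and 5 of 16 libraries correlated best with their own number. With the number as a replicate block, 5706 genes were called with MPP in 3D, 5675 with MPP in 2D, 6451 between MPP-treated cultures, 7634 between untreated cultures and 2436 for the difference, and no call of a member changed. ADCY2, and ADCY8 outside untreated 3D, are limited by depth.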
